A study of Homo sapiens with 36 samples.

Results

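Laminin chains are the subject of this account: 8 genes encoding subunits of the laminin trimers, LAMA1, LAMA3, LAMA4 and LAMA5 of the α class, LAMB1, LAMB2 and LAMB3 of the β class and LAMC1 of the γ class. They were chosen by name, and each was read from the transcript cluster that carries its symbol alone. Of the 8 chains, 7 had such a cluster among the 18417 genes that could be named on an array of 33297 transcript clusters; LAMA3 had none under its own name and is not analysed here. A transcript cluster is the set of probes spread over the exons of 1 gene.

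Laminins are the main glycoproteins of the basement membrane, the sheet of matrix on which epithelia rest. Each is secreted as a trimer of 1 α, 1 β and 1 γ chain. In many trimers, though not in all, the shape is a cross whose short arms polymerise into a network. The globular end of the α chain binds receptors on the cell such as integrins and dystroglycan. The alveolar epithelium rests on trimers built with the α5 chain and on a trimer that holds the α3 and β3 chains, which ties epithelial cells to the matrix through hemidesmosomes, whereas α4 is the chain best known from vessel walls and mesenchymal cells. The γ1 chain encoded by LAMC1 is shared by most laminin trimers.

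The cells were A549, a cell line derived from a human lung adenocarcinoma and widely used as a stand-in for alveolar type II cells. They were kept in DMEM with 1% fetal bovine serum, either alone (control) or with cigarette smoke extract (CSE) at 1%, 5% or 10%, renewed daily, and were subcultured weekly until RNA was taken at 1, 3 or 5 weeks. With 3 arrays for each of the 12 groups, 36 arrays in all, levels are given in log2 units of RMA-normalised intensity. Replicates were independent experiments with a single line according to the study. The p-values therefore rest on the spread among arrays, whose small number limits the precision. In a bulk extract, fewer cells expressing a gene and less RNA per cell cannot be told apart.

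The epithelial markers KRT8 and KRT18 lay between 12.97 and 13.62 on all arrays, and CDH1 between 10.53 and 11.40. EPCAM, at 8.28 to 10.98, and KRT19, at 8.30 to 9.91, ranged more widely, and with CSE 10% at 5 weeks they differed from the earlier controls by -1.74 and -0.72 (limma adjusted p = 5.8e-12 and 0.00010). Against the 5-week controls, 4 of these 5 epithelial markers were lower with CSE 10% (limma adjusted p under 0.05) and 0 were higher. Of all clusters, 39.6% were lower and 21.9% higher. Markers of a mature type II cell differed in level. The surfactant genes SFTPC, at 5.84 to 6.70, and SFTPB, at 5.98 to 6.79, were dim, near or below the median cluster of an array. NAPSA (6.06 to 6.69) and LAMP3 (5.14 to 5.90) were dim as well. The surfactant gene SFTPD (6.86 to 7.79) was brighter, and ABCA3 (8.047 to 9.085) lay above the median cluster of each array. The fibroblast markers DCN (3.62 to 4.57) and LUM (3.46 to 4.18), the leukocyte marker PTPRC (3.63 to 4.64) and the endothelial marker PECAM1 (4.71 to 5.38) were dim on every array, but not every marker of these lists was: the fibroblast collagen gene COL1A1 was at 7.46 to 8.06 and CD68 at 8.89 to 11.15, both above the median cluster of each array. The 3 control arrays of week 5 stood apart. Their log2 values had an SD of 2.15 to 2.21, narrower than the 2.25 to 2.31 of the remaining 33 arrays. Scores on the leading principal component (38.8% of the variance) were -111 to -74.6 for these 3 arrays and -61.2 to 47.1 elsewhere. Their labels also conflict: 5 weeks is given by titles and short codes, but 3 weeks by all 3 descriptions and by the source name of replicates 1 and 2. Results at 5 weeks are therefore given against these 3 arrays and again against the 6 control arrays of weeks 1 and 3.

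The chains did not move as 1 group. LAMC1 was higher than control in exposed cells at each of the 3 times, 1.28- to 1.64-fold where it passed the test. LAMB3 was up to 1.74-fold higher after 1 week of exposure and 1.32- to 1.51-fold lower than control after 5 weeks, and the decrease was also called against the controls of weeks 1 and 3. LAMA5 fell at 5 weeks against both sets of controls, LAMA4 fell at all 3 times at 1 or more concentrations, and the increase of LAMB1 at 5 weeks was seen only against the 5-week controls. No chain changed by a log2 value beyond 1 against its control.

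**Figure D1:**
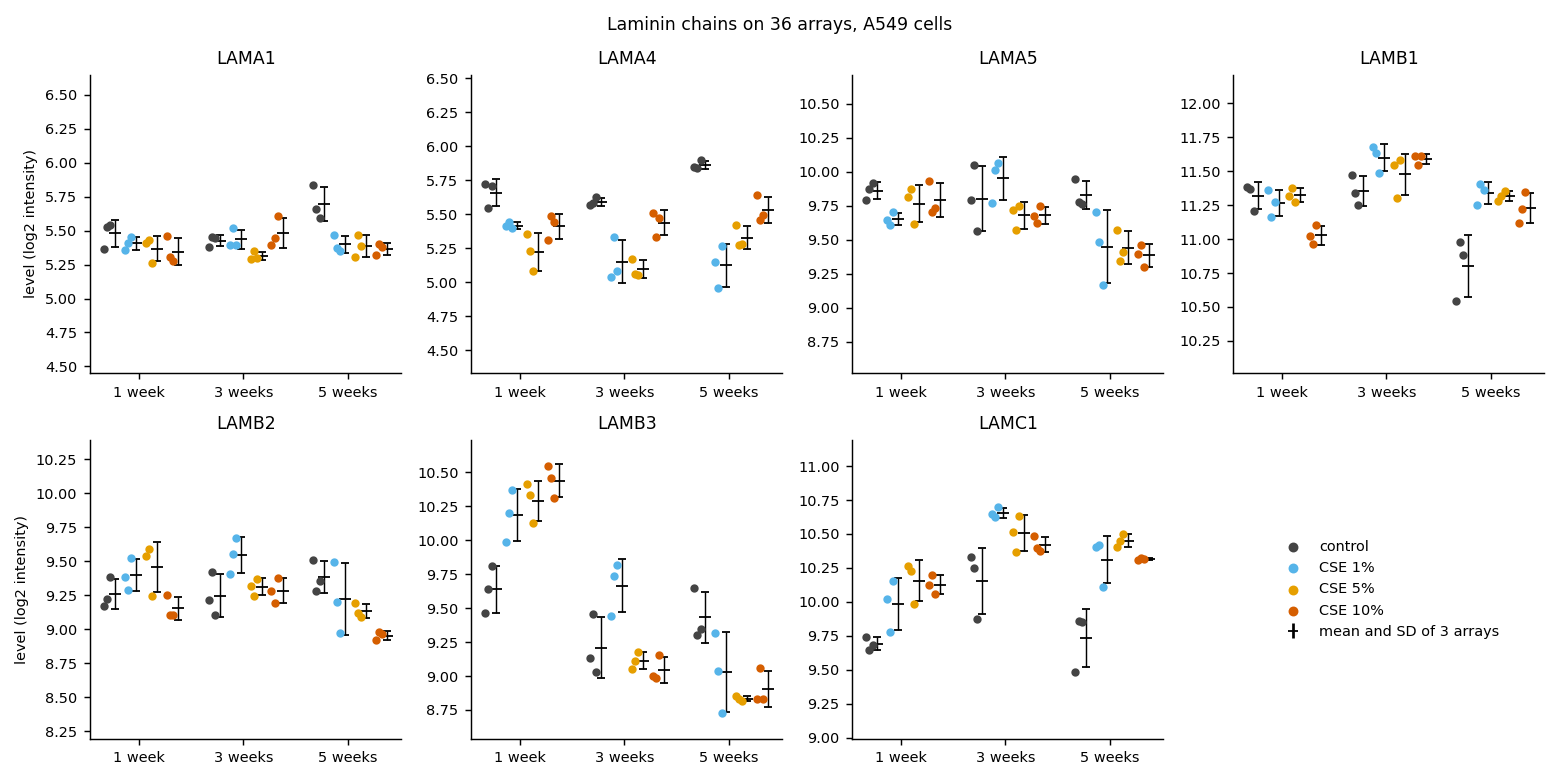
Level of each laminin chain (vertical axes, log2 intensity, all spanning the same number of log2 units) on each of the 36 arrays, by week and CSE concentration; coloured points are arrays and black marks give the mean and SD of the 3 arrays of a group. LAMB3 runs from 10.31 to 10.55 with CSE 10% at 1 week and from 8.83 to 9.06 at 5 weeks, while the 5-week controls of LAMB1, LAMA1 and LAMA4 do not overlap the earlier controls.

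Regulatory sequence is shown for LAMB3, the chain with the widest range over the groups, and for LAMC1, the chain that was raised at all 3 times. In RefSeq (GRCh38.p14), LAMB3 spans chr1:209614870-209652425 and LAMC1 chr1:183023420-183145592; of the other chains, LAMB1 lies at chr7:107923799-108003161, LAMB2 at chr3:49121114-49133050, LAMA4 at chr6:112107931-112254985 and LAMA5 at chr20:62309065-62367312. The windows are 300 bases long, ending 50 bases after an annotated start, and read 5′ to 3′ on the strand of the gene, so the last bases belong to the transcript. Capitals mark matches, on either strand and allowing overlaps, to an AP-1 motif (TGANTCA) or a GC box (GGGCGG). The first LAMB3 window is chr1:209651325-209651624 and the second chr1:209652376-209652675, both on the minus strand, and the LAMC1 window is chr1:183023170-183023469 on the plus strand. LAMB3 has 1 more window, chr1:209652280-209652579, which overlaps the second. It holds a GC box and no AP-1 match and is not shown.
LAMB3, inner start: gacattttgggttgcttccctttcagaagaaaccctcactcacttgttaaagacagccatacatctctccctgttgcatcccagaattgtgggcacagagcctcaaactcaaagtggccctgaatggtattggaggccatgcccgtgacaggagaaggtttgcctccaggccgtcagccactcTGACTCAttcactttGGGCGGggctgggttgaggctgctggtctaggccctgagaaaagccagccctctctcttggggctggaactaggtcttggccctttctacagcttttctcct
LAMB3, outer start: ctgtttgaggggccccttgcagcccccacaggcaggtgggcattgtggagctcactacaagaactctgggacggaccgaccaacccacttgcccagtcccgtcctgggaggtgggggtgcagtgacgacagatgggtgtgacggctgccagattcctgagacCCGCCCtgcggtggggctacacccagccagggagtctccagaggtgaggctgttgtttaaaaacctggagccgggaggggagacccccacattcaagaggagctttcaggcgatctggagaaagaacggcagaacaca
LAMC1: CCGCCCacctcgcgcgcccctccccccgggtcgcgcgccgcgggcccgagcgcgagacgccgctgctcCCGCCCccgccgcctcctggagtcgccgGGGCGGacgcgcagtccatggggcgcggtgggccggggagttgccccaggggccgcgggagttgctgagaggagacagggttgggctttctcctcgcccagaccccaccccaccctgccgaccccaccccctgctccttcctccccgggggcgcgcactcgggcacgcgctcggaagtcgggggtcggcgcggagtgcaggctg

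The inner LAMB3 window holds an AP-1 match at -67 and a GC box at -52, counted from the start. AP-1 matches occurred in 7.71% of the 35116 promoter windows of the reference and GC boxes in 45%. Of the 7 chains with a window, all but LAMA1, the AP-1 letters were found for 2, LAMB3 and LAMA3, and the GC box for 6, all but LAMA4. LAMB3 has 3 windows, with AP-1 letters in 1, and the other chains have 1 each, whereas the shares above are per window. The LAMC1 window has 3 GC boxes, at -250, -182 and -154, and 1 match to GCGTG, the core bound by the aryl hydrocarbon receptor, at 10; that core was present in 36.5% of all windows. The antioxidant response element letters TGACNNNGC, found in 13.3% of all windows, did not occur in the windows of the chains. CAGAC, the SMAD box, was found in 45.3% of all windows and in those of LAMC1, LAMB2, LAMA3, LAMA4 and LAMA5. These are matches of letters only, and no binding was measured.

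After 1 week, LAMB3 was the 1 chain of 7 that passed with CSE 1%, higher than control, where 3.41% of all clusters passed higher and 1.9% lower. Differences here and below are log2 fold changes, and a cluster passed where limma's p, adjusted over all 33297 clusters, was under 0.05. With CSE 5%, LAMB3 and LAMC1 were higher and LAMA4 was lower, against 5.99% higher and 4.84% lower among all clusters. With CSE 10%, LAMB3 and LAMC1 were again higher, and LAMA4 and LAMB1 were lower, against 8.27% and 8.44%. The median log2 fold change over the 7 chains was -0.05, 0.00 and -0.11 at the 3 concentrations, and over all clusters -0.03, -0.03 and -0.02.

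After 3 weeks, CSE 1% raised LAMB3 and LAMC1 and lowered LAMA4, against 5.67% of clusters higher and 5.81% lower. CSE 5% raised LAMC1 and lowered LAMA4, against 9.7% and 9.93%. With CSE 10%, 0 of 7 chains passed in the limma fit, where 14% of all clusters passed higher and 12.5% lower; 2 chains, LAMB1 and LAMC1, had an unadjusted p under 0.05, and the same count of 2 passed after cyclic loess or a further quantile normalisation. Medians over the chains were 0.25, -0.10 and 0.04, and over all clusters 0.00, -0.04 and 0.01. Centring each array on housekeeping genes shifted the 3-week differences by 0.10, 0.16 and 0.19, and 5, 3 and 3 chains then passed. The median over all clusters moved with it, to 0.10, 0.11 and 0.20. Shares of all clusters after centring, cyclic loess or a further quantile normalisation, or at an unadjusted p, were not computed. These counts therefore have no like reference.

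After 5 weeks, 2 chains were higher (LAMB1 and LAMC1) and 4 lower with CSE 1%, and 2 were higher and 5 lower with CSE 5% and with CSE 10%. Among all clusters, 20.3% were higher and 33.5% lower with CSE 1%, 23% and 40.3% with CSE 5%, and 21.9% and 39.6% with CSE 10%. The median chain changed by -0.30, -0.31 and -0.33, and the median cluster by -0.14, -0.17 and -0.17. With the 6 earlier control arrays as reference, 1 chain was higher (LAMC1) and 3 were lower at each concentration: LAMA5 and LAMB3 throughout, with LAMA4 at CSE 1% and 5% and LAMB2 at CSE 10%. All clusters then gave 7.86% higher and 7.43% lower with CSE 1%, 13.1% and 13% with CSE 5%, and 15% and 16% with CSE 10%, and the median chain moved by -0.06, -0.12 and -0.11 and the median cluster by -0.004, -0.02 and -0.01. All 3 concentrations of a week share the control arrays of that week.

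**Figure D2:**
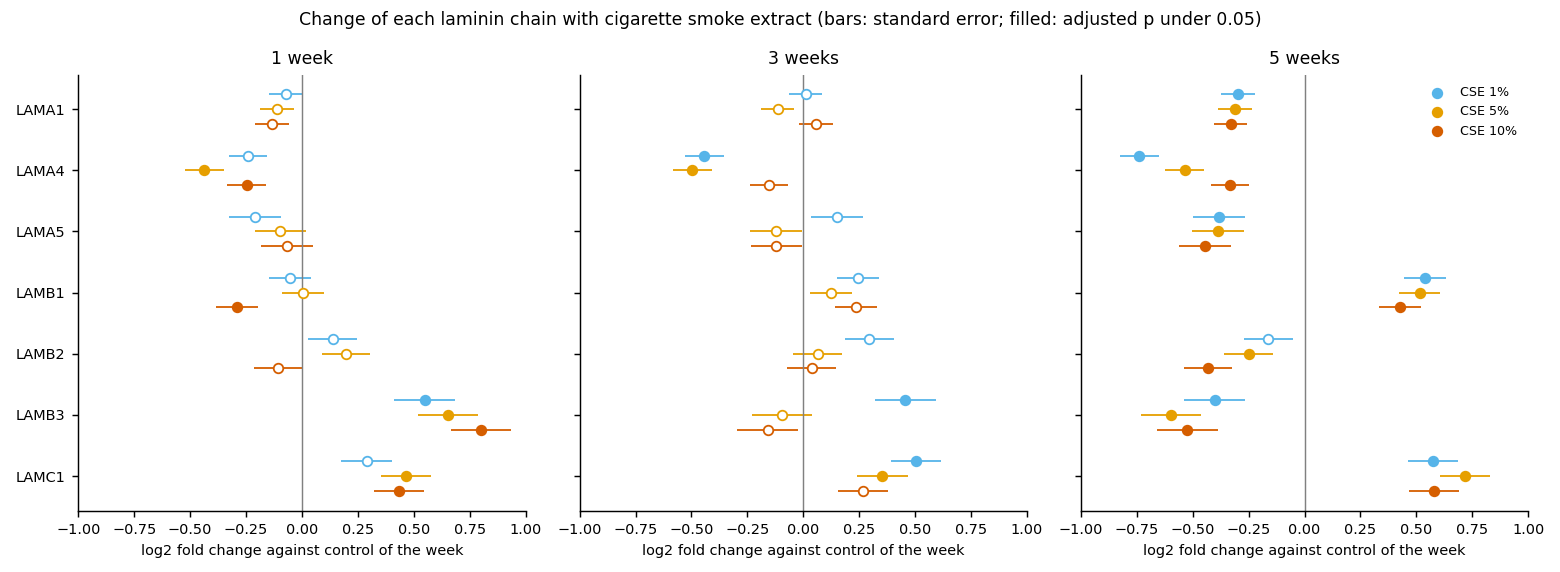
Log2 fold change of each laminin chain against the control of the same week (horizontal axes), in panels for 1, 3 and 5 weeks; colours give the CSE concentration, bars the standard error, and filled points an adjusted p under 0.05. LAMB3 lies to the right of 0 at 1 week (0.55 to 0.80) and to the left at 5 weeks (-0.60 to -0.40), and LAMC1 lies to the right of 0 throughout.

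LAMB3 encodes the β3 chain, which pairs with the α3 chain and is required for firm attachment of stratified epithelia. The control arrays of week 1 read 9.46, 9.64 and 9.81. With CSE 1% the 3 arrays read 9.99, 10.20 and 10.37, with CSE 5% 10.41, 10.33 and 10.13, and with CSE 10% 10.55, 10.46 and 10.31. Every exposed array of week 1 lay above every control array of that week. The log2 fold changes were 0.55 ± 0.14 (SE, adjusted p = 0.012), 0.65 ± 0.14 (adjusted p = 0.0012) and 0.80 ± 0.14 (adjusted p = 6.0e-05), or 1.46-, 1.57- and 1.74-fold. The increase with CSE 1% did not pass without control replicate 1 (0.46, adjusted p = 0.078) or without CSE 1% replicate 3 (0.46, adjusted p = 0.11).

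At 3 weeks the controls of LAMB3 read 9.13, 9.46 and 9.03. The CSE 1% arrays, at 9.44, 9.73 and 9.82, overlapped the highest control, and the difference of 0.46 ± 0.14 passed (adjusted p = 0.024) but was lost without either of 2 control arrays or either of 2 exposed arrays (adjusted p up to 0.14). The CSE 5% arrays read 9.05, 9.11 and 9.18 and those of CSE 10% 9.00, 8.99 and 9.16, inside or just below the control range. Their differences of -0.10 and -0.16 did not pass. CSE 5% lay 0.55 ± 0.14 below CSE 1% (adjusted p = 0.012), with no overlap between their arrays.

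By 5 weeks LAMB3 was at 9.65, 9.30 and 9.34 in control cells, 9.32, 9.04 and 8.73 with CSE 1%, 8.85, 8.83 and 8.82 with CSE 5%, and 8.83, 9.06 and 8.83 with CSE 10%. The arrays of CSE 5% and 10% all lay below the controls, and CSE 1% overlapped them. Differences were -0.40 ± 0.14 (adjusted p = 0.015), -0.60 ± 0.14 (adjusted p = 0.00046) and -0.52 ± 0.14 (adjusted p = 0.0017). The 6 earlier controls gave -0.39, -0.59 and -0.52, close to these, with adjusted p of 0.021, 0.00033 and 0.0012, although the arrays of CSE 1% and 10% overlapped the lowest of them. Those controls pool means of 9.64 at week 1 and 9.21 at week 3, beside 9.03, 8.83 and 8.91 in exposed cells. The distance to the week 3 controls alone was therefore smaller, and it was not tested. From the 5-week controls, the difference with CSE 1% did not pass without control replicate 1 (-0.29) or CSE 1% replicate 3 (-0.25). Over the 12 groups, LAMB3 ran from 10.44 with CSE 10% at 1 week to 8.83 with CSE 5% at 5 weeks, a range of 1.60 against a pooled SD within groups of 0.17.

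The turn of LAMB3 from higher to lower was tested as the difference between the effect at a later week and the effect at 1 week. At 3 weeks minus 1 week it was -0.75 ± 0.19 with CSE 5% (adjusted p = 0.025) and -0.96 ± 0.19 with CSE 10% (adjusted p = 0.0012), whereas the -0.09 with CSE 1% did not pass. The CSE 5% value at 3 weeks did not pass when any 1 of 6 of its 12 arrays was left out (adjusted p of 0.051 to 0.11): control replicates 1 and 2 of week 1, control replicate 2 of week 3, CSE 5% replicates 1 and 2 of week 1 and CSE 5% replicate 1 of week 3. It was also lost after housekeeping centring (-0.58, adjusted p = 0.062) and in a separate fit on fewer arrays (adjusted p = 0.065). At 5 weeks minus 1 week it was -0.95, -1.25 and -1.32 at the 3 concentrations, each ± 0.19, with adjusted p of 0.0010, 3.8e-05 and 1.1e-05. With the controls of weeks 1 and 3 in place of the 5-week controls, a setting added after the data were seen, these were -0.94, -1.24 and -1.31, with adjusted p of 0.00014, 1.3e-06 and 4.1e-07. The week 1 controls enter both effects in this setting and partly cancel, and the SE falls to 0.15. Its adjusted p are therefore not comparable with those above. LAMB3 was then the 1 chain of 7 to pass at each concentration, where 8.45%, 11% and 10.7% of all clusters passed in either direction.

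Counted over the 7 chains with the 5-week controls, the effect differed between 3 weeks and 1 week for 0 chains with CSE 1% in the limma fit (2 at an unadjusted p under 0.05, and 2 after housekeeping centring), 1 with CSE 5% and 2 with CSE 10%, against 4.9%, 3.23% and 9.13% of all clusters. Between 5 weeks and 1 week it differed for 3, 3 and 2 chains, against 21%, 30.7% and 29.6%. Besides LAMB3 these were LAMB1 throughout, LAMA4 with CSE 1% and LAMB2 with CSE 5%. For CSE 1% at 3 weeks minus 1 week, housekeeping centring moved the median of all clusters from 0.03 to 0.19. Shares of all clusters after that centring or at an unadjusted p were not computed.

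Over the 12 group means, the genes whose pattern was most like that of LAMB3 were EMP1, an epithelial membrane protein (Pearson r = 0.97), SLC7A1, a transporter of cationic amino acids (r = 0.95), and HBEGF, a ligand of the EGF receptor (r = 0.95). Candidates were 4273 genes whose group means spanned at least 1 log2 unit, and the 12 points share arrays and controls, so r is a description. Leaving out the 5-week control group gave 0.98, 0.95 and 0.95.

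**Figure D3:**
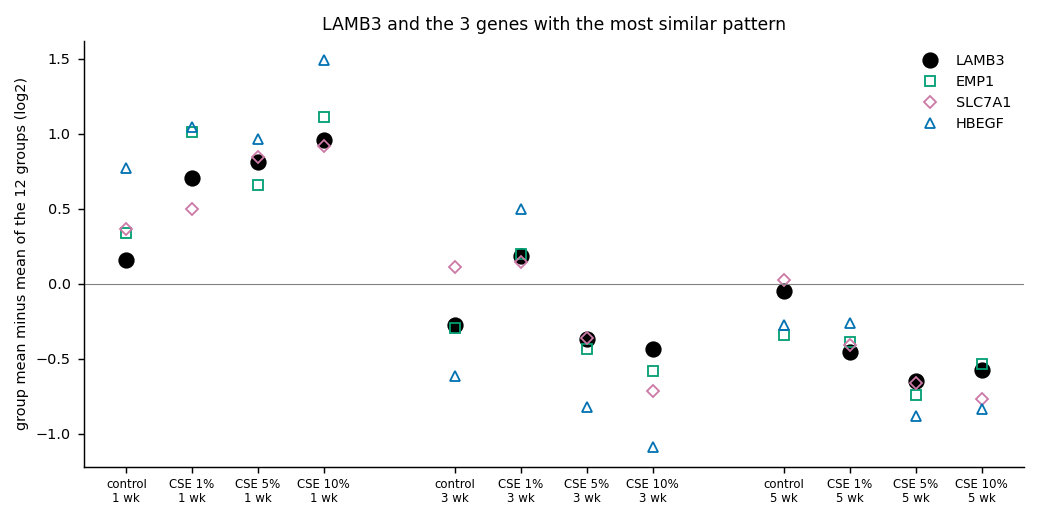
Mean level of LAMB3, EMP1, SLC7A1 and HBEGF in each of the 12 groups, each less its own mean over the groups (vertical axis, log2 units), against group (horizontal axis). All 4 genes are highest with CSE at 1 week and lowest with CSE 5% or 10% at 3 or 5 weeks.

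LAMC1 encodes the γ1 chain, which most trimers of lung and other tissues need for assembly. In control cells of week 1 it read 9.74, 9.65 and 9.69. It read 10.02, 9.78 and 10.15 with CSE 1%, 10.26, 10.23 and 9.98 with CSE 5%, and 10.13, 10.20 and 10.06 with CSE 10%. All 9 exposed arrays lay above the 3 controls. The differences of 0.46 ± 0.11 with CSE 5% (adjusted p = 0.0053) and 0.43 ± 0.11 with CSE 10% (adjusted p = 0.0062) passed, and the 0.29 with CSE 1% did not (adjusted p = 0.15).

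At 3 weeks LAMC1 read 10.33, 10.25 and 9.88 in controls, 10.65, 10.63 and 10.70 with CSE 1%, 10.51, 10.37 and 10.64 with CSE 5%, and 10.49, 10.40 and 10.38 with CSE 10%. The exposed arrays were again all above the controls, 1 of which, replicate 3, lay below the other 2. CSE 1% gave 0.50 ± 0.11 (adjusted p = 0.0024), CSE 5% 0.35 ± 0.11 (adjusted p = 0.024) and CSE 10% 0.27 ± 0.11 (adjusted p = 0.078). The CSE 5% difference was 0.22 without control replicate 3 (adjusted p = 0.21) and 0.29 without CSE 5% replicate 3 (adjusted p = 0.14), and it missed the threshold without CSE 5% replicate 1 (adjusted p = 0.066).

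The 5-week controls of LAMC1 read 9.49, 9.86 and 9.86, and the exposed arrays 10.40, 10.42 and 10.11 with CSE 1%, 10.40, 10.45 and 10.50 with CSE 5%, and 10.31, 10.33 and 10.31 with CSE 10%. No exposed array overlapped the controls. The differences were 0.57 ± 0.11, 0.72 ± 0.11 and 0.58 ± 0.11, with adjusted p of 0.00017, 5.8e-06 and 8.4e-05. Measured from the earlier controls they were 0.39, 0.53 and 0.39 and still passed (adjusted p = 0.0055, 0.00013 and 0.0025), although the arrays of CSE 1% and 10% then overlapped the highest control array. Those controls pool weeks with unlike means, 9.69 at week 1 and 10.15 at week 3, beside 10.31, 10.45 and 10.32 in exposed cells. The distance to the week 3 controls alone was therefore smaller, and it was not tested. The effect on LAMC1 was not shown to differ between weeks, the 6 differences between effects running from -0.17 to 0.29 with none past the threshold; 0 of these 6 had an unadjusted p under 0.05. PRRC2C (r = 0.96), SNORD56B (r = 0.96) and ERC1 (r = 0.95) had the group means most like those of LAMC1, and r without the 5-week control was 0.96, 0.94 and 0.96.

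LAMB1 encodes the β1 chain, the usual partner of γ1 outside specialised epithelia. Its week 1 controls read 11.38, 11.37 and 11.21, and the CSE 10% arrays, at 11.02, 10.96 and 11.10, all lay below them. That difference was -0.29 ± 0.09 (adjusted p = 0.030), and it did not pass without any 1 of 4 arrays, replicates 1 and 2 of either group (adjusted p up to 0.12). With CSE 1% and 5% the differences were -0.05 and 0.00. At 3 weeks the differences of 0.25, 0.12 and 0.24 did not pass (adjusted p = 0.095, 0.40 and 0.063).

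At 5 weeks the controls of LAMB1 read 10.54, 10.98 and 10.88, below each of the 6 earlier control arrays. The CSE 1% arrays read 11.25, 11.40 and 11.36, those of CSE 5% 11.28, 11.32 and 11.35, and those of CSE 10% 11.12, 11.22 and 11.35. All 9 exposed arrays lay above the 5-week controls, by 0.54 ± 0.09, 0.51 ± 0.09 and 0.43 ± 0.09 (adjusted p = 5.0e-05, 3.9e-05 and 0.00033). The differences of LAMB1 from the earlier controls were 0.0008, -0.02 and -0.11 and did not pass (adjusted p = 1.00, 0.87 and 0.33). The gain between 1 and 5 weeks in the effect on LAMB1, 0.59, 0.51 and 0.72 with the 5-week controls, was 0.06, -0.02 and 0.18 with the earlier ones and did not pass. IVNS1ABP, FILIP1 and RAVER2 were most like LAMB1 over the groups (r = 0.93, 0.92 and 0.91), and less so without the 5-week control (r = 0.86, 0.83 and 0.83).

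LAMB2, the β2 chain found at synapses, in vessels and in the glomerular filter, was not changed past the threshold at 1 or 3 weeks. At 5 weeks its controls read 9.51, 9.28 and 9.36 and the CSE 10% arrays 8.92, 8.98 and 8.97, all below them. The difference was -0.43 ± 0.11 (adjusted p = 0.0013), and -0.30 ± 0.09 against the earlier controls (adjusted p = 0.015). CSE 5%, at 9.19, 9.12 and 9.09, was 0.25 lower (adjusted p = 0.047), a call lost against the earlier controls (-0.12), with the replicate number as a block (adjusted p = 0.054), and without any of 5 of the 6 arrays compared. With CSE 1% the arrays spread from 8.97 to 9.50 and the difference was -0.16, which passed only without replicate 1 of CSE 1% (-0.30, adjusted p = 0.023). CMTM4, ADGRG1 and FHIP1A were most like LAMB2 (r = 0.83, 0.82 and 0.81).

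LAMA5 encodes the α5 chain, the main α chain of the mature alveolar basement membrane. Its differences at 1 and 3 weeks lay between -0.21 and 0.15 and did not pass. At 5 weeks the controls read 9.95, 9.78 and 9.76. The CSE 1% arrays read 9.70, 9.48 and 9.16, those of CSE 5% 9.57, 9.34 and 9.41, and those of CSE 10% 9.40, 9.46 and 9.30. Every exposed array lay below every 5-week control, with differences of -0.38 ± 0.12, -0.39 ± 0.12 and -0.45 ± 0.12 (adjusted p = 0.0073, 0.0049 and 0.0017). With the earlier controls the differences were again -0.38, -0.39 and -0.45 and passed (adjusted p = 0.0079, 0.0042 and 0.00098), although only the CSE 10% arrays lay wholly below those 6 controls, which range from 9.56 to 10.05. The CSE 1% call rested on replicate 3, without which the difference was -0.24 (adjusted p = 0.091). FBXL19-AS1, MUC5B and RREB1 had the most similar group means (r = 0.80, 0.80 and 0.79).

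LAMA4 and LAMA1 were dim, with means over all arrays of 5.40 and 5.43, below every array median. The deposited table carries no detection calls, so whether they stood above background is unknown. Both fall in the second dimmest quintile of clusters (means of 4.88 to 6.20), and that whole quintile moved at 5 weeks, with medians of -0.25, -0.29 and -0.25 against the 5-week controls and 0.004, -0.03 and 0.01 against the earlier ones.

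LAMA4, the α4 chain, read 5.72, 5.54 and 5.71 in controls of week 1 and 5.36, 5.23 and 5.08 with CSE 5%. The CSE 5% arrays all lay below the controls, with a difference of -0.44 ± 0.09 (adjusted p = 0.00069). Those of CSE 1%, at 5.41, 5.44 and 5.40, also lay below them, with a difference of -0.24 that did not pass (limma adjusted p = 0.11). CSE 10%, at 5.31, 5.48 and 5.44, was 0.25 lower, just past the threshold (adjusted p = 0.048), and this call was lost when any 1 of 5 of the 6 arrays was left out. At 3 weeks the controls read 5.57, 5.58 and 5.63, the CSE 1% arrays 5.04, 5.33 and 5.08 and the CSE 5% arrays 5.17, 5.06 and 5.06. Again no exposed array reached the controls, the differences being -0.44 (adjusted p = 0.00063) and -0.50 (adjusted p = 8.1e-05). CSE 10%, at 5.51, 5.33 and 5.47, differed by -0.15 and did not pass, and it lay 0.34 above CSE 5% (adjusted p = 0.047), a call lost without any 1 of those 6 arrays.

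At 5 weeks LAMA4 read 5.85, 5.84 and 5.90 in controls, higher than in the 6 earlier control arrays. It read 5.15, 4.96 and 5.27 with CSE 1%, 5.42, 5.27 and 5.28 with CSE 5%, and 5.64, 5.46 and 5.49 with CSE 10%. All exposed arrays lay below the 5-week controls, by -0.74 ± 0.09, -0.54 ± 0.09 and -0.33 ± 0.09 (adjusted p = 2.1e-07, 8.4e-06 and 0.0017). From the earlier controls LAMA4 differed by -0.50 and -0.30 with CSE 1% and 5%, which passed (adjusted p = 1.3e-05 and 0.0034), and by -0.10 with CSE 10%, which did not (adjusted p = 0.36). The CSE 10% call was also lost after cyclic loess (-0.09). CD68, a lysosomal protein used as a leukocyte marker but bright on all these arrays (8.89 to 11.15), was the gene most like LAMA4 over the groups (r = 0.88, and 0.91 without the 5-week control), followed by ANO3 (r = 0.85) and GPD1 (r = 0.84).

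LAMA1, the α1 chain of the embryonic basement membrane, changed past the threshold only at 5 weeks. The controls read 5.84, 5.66 and 5.59 and all 9 exposed arrays between 5.30 and 5.47. Against these controls it was lower by -0.30, -0.31 and -0.33, each ± 0.07 (adjusted p = 0.0018, 0.00080 and 0.00047). Against the controls of weeks 1 and 3 the differences were -0.06, -0.07 and -0.09 and did not pass, nor did they after cyclic loess (-0.05, -0.04 and -0.09). The genes most like LAMA1 over the 12 groups were IL17A, OR2T4 and OR51Q1, a cytokine of T cells and a pair of olfactory receptors (r = 0.96, 0.92 and 0.89). Their r fell to 0.82, 0.63 and 0.50 without the 5-week control group.

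**Figure D4:**
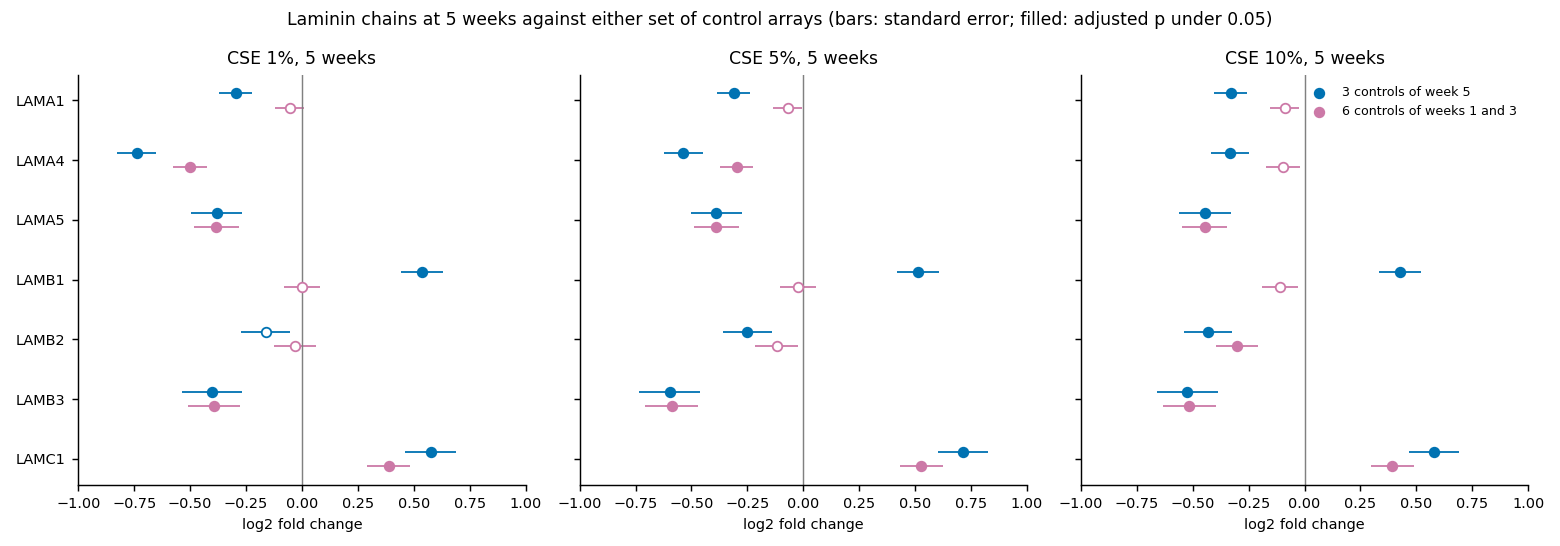
Log2 fold change at 5 weeks (horizontal axes) of each laminin chain against the 3 controls of week 5 or the 6 controls of weeks 1 and 3, in panels by CSE concentration; bars give the standard error and filled points an adjusted p under 0.05. LAMB3 and LAMA5 keep their values, LAMC1 stays right of 0, and LAMB1 and LAMA1 lie near 0 against the earlier controls.

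Concentrations were also compared within each week. In 4 of the 6 comparisons, 0 of 7 chains passed in the limma fit, where all clusters gave 6.73% for CSE 5% against 1% and 3.27% for CSE 10% against 5% at 1 week, and 3.54% and 2.22% at 5 weeks; at an unadjusted p under 0.05 the counts were 1, 3, 1 and 1. Shares of all clusters at an unadjusted p were not computed. At 3 weeks, 1 chain passed in each comparison, LAMB3 between 5% and 1% (5.51% of all clusters) and LAMA4 between 10% and 5% (0.967%). The step in LAMB3 was lost when replicate 2 or 3 of CSE 1% was left out (adjusted p of 0.062 and 0.087), or replicate 1 of CSE 5% (adjusted p of 0.057).

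Control cells were compared between weeks. From 1 to 3 weeks, LAMC1 rose by 0.46 ± 0.11 (adjusted p = 0.0063) and LAMB3 fell by 0.43 ± 0.14 (adjusted p = 0.036), the other 5 chains not passing, where 6.23% of clusters were higher and 5.27% lower. LAMC1 did not pass without control replicate 1 of week 3 (0.37, adjusted p = 0.064), and LAMB3 did not pass without replicate 2 or 3 of week 1 or replicate 1 or 3 of week 3 (adjusted p up to 0.20). From 3 to 5 weeks, LAMB1 was lower by -0.55 ± 0.09 and LAMC1 by -0.42 ± 0.11 (adjusted p = 2.9e-05 and 0.0029), against 21.8% of clusters lower. LAMA1 and LAMA4 were each higher by 0.27 (adjusted p = 0.0039 and 0.010), against 31.7% higher, and cyclic loess turned the sign of these last 2 (-0.022 and -0.019). The second dimmest quintile of all clusters moved by a median of 0.25 in that comparison and the brightest quintile by -0.15.

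Among the members, the highest r between group means over the 12 groups were 0.72 for LAMA1 and LAMA4, 0.70 for LAMA5 and LAMB2, and 0.69 for LAMB1 and LAMC1. Without the 5-week control group these were 0.48, 0.69 and 0.55, so LAMA5 and LAMB2 then came first. LAMA4 and LAMC1 ran in opposite directions (r = -0.76, and -0.67 without that group), and r for LAMB3 and LAMC1 was -0.38 and -0.46. The 12 points share the same arrays for every chain, and these values are descriptions.

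LAMA2, LAMB4 and LAMC3 are laminin chains outside the 8 that had a cluster of their own. LAMB4 differed by -0.38, -0.56 and -0.48 and LAMC3 by -0.25, -0.38 and -0.34 at 5 weeks, all past the threshold. Of all clusters, 33.5%, 40.3% and 39.6% were lower in these comparisons. Against the controls of weeks 1 and 3, 0 of these 3 chains passed in the limma fit (1, 1 and 0 at an unadjusted p under 0.05). Of all clusters, 7.86% were then higher and 7.43% lower with CSE 1%, 13.1% and 13% with CSE 5%, and 15% and 16% with CSE 10%. LAMA2 passed in 1 of the 9 comparisons with same-week control, at 3 weeks with CSE 10% (0.26), where 14% of all clusters were higher.

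Receptors for laminin were read from a list of 14 genes, 10 with a cluster of their own. With CSE 5%, 1 of 10 was higher and 0 lower at 1 week, where 5.99% of all clusters were higher and 4.84% lower. At 3 weeks 3 were higher and 0 lower, against 9.7% and 9.93% of clusters. At 5 weeks 3 were higher and 2 lower, against 23% and 40.3%. With the earlier controls, 1 receptor was higher and 3 were lower at 5 weeks, against 13.1% and 13% of clusters. ITGA2, the α2 chain of a collagen and laminin receptor, differed with CSE 5% by 0.82 (3 weeks), 1.27 (5 weeks) and 0.60 (5 weeks, earlier controls), all past the threshold. ITGA6, the α6 chain shared by the main laminin receptors, gave 0.47 at 3 weeks and 0.90 at 5 weeks, both past the threshold, and 0.21 against the earlier controls, which did not pass. Its partner ITGB1 gave 0.28, 0.97 and 0.23 in the same order, of which the second passed, while ITGB4, the hemidesmosomal partner, was -0.52 at 5 weeks and -0.55 against the earlier controls, both past the threshold. BCAM, a receptor for the α5 chain, was higher at 3 weeks with CSE 1% (0.87) and 5% (0.61) and did not pass with CSE 10% (0.16).

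Partners of laminin in the basement membrane included larger differences. Of 18 such genes, with CSE 5%, 2 were higher and 4 lower at 1 week, against 5.99% and 4.84% of all clusters. The counts were 4 higher and 2 lower at 3 weeks, against 9.7% and 9.93%. At 5 weeks they were 3 higher and 5 lower, which as shares of the list did not exceed the 23% and 40.3% over all clusters. The earlier controls gave 2 higher and 4 lower at 5 weeks, against 13.1% and 13%. NID2, a nidogen that bridges laminin and collagen IV networks, differed with CSE 5% by -1.26 after 1 week, -1.51 after 3 weeks and -2.71 after 5 weeks (-1.23 against the earlier controls). PXDN, peroxidasin, which cross-links collagen IV, was higher by 1.91, 2.26 and 2.49, and by 2.30 against the earlier controls. SMOC1, a matricellular protein of basement membranes, was lower by -0.77, -1.20 and -1.33, and by -1.60 against the earlier controls. All 12 of these differences passed. NID2, PXDN and SMOC1 were named for their small p with CSE 5% at 3 and 5 weeks, so their passing there is no independent result. Named genes of the receptor, anchorage and protease lists were chosen in the same way. COL15A1 was lower at 5 weeks (-0.44) and did not pass against the earlier controls (-0.06).

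Of 7 measured genes of hemidesmosomes and epithelial anchorage, with CSE 5%, 0 passed at 1 week (limma), where 5.99% of all clusters were higher and 4.84% lower. At 3 weeks 2 were higher and 0 lower, against 9.7% and 9.93% of clusters. At 5 weeks 2 were higher and 4 lower, against 23% and 40.3%. The earlier controls gave 1 and 3, against 13.1% and 13%. DST, dystonin, was 1.44 higher at 3 weeks and 2.64 higher at 5 weeks with CSE 5%, and 1.12 higher against the earlier controls. This symbol covers both an epithelial hemidesmosomal form and other isoforms, which the cluster does not separate. KRT14 differed by -0.27 at 3 weeks, which did not pass, and by -0.69 at 5 weeks, or -0.45 against the earlier controls, which did. Among 10 proteases known to cleave laminin chains, 4 were higher and 0 lower with CSE 5% at 3 weeks, against 9.7% and 9.93% of clusters. At 5 weeks 3 were higher and 3 lower, against 23% and 40.3% (4 and 2 with the earlier controls, against 13.1% and 13%). MMP7 (2.46 and 3.18), CTSS (1.57 and 1.69) and MMP2 (1.26 and 1.22) were higher at 3 and 5 weeks, and all 3 also passed against the earlier controls (2.14, 1.38 and 1.29). MMP14, which passed at 5 weeks (-0.47), did not pass against them (-0.18). The median difference at 5 weeks with CSE 5% was 0.07 over the receptors, -0.16 over the basement membrane partners, -0.34 over the anchorage genes and 0.05 over the proteases, beside -0.17 over all clusters. With the earlier controls these medians were 0.13, 0.02, -0.14 and 0.12, beside -0.02, so that of the basement membrane partners turned sign.

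**Figure D5:**
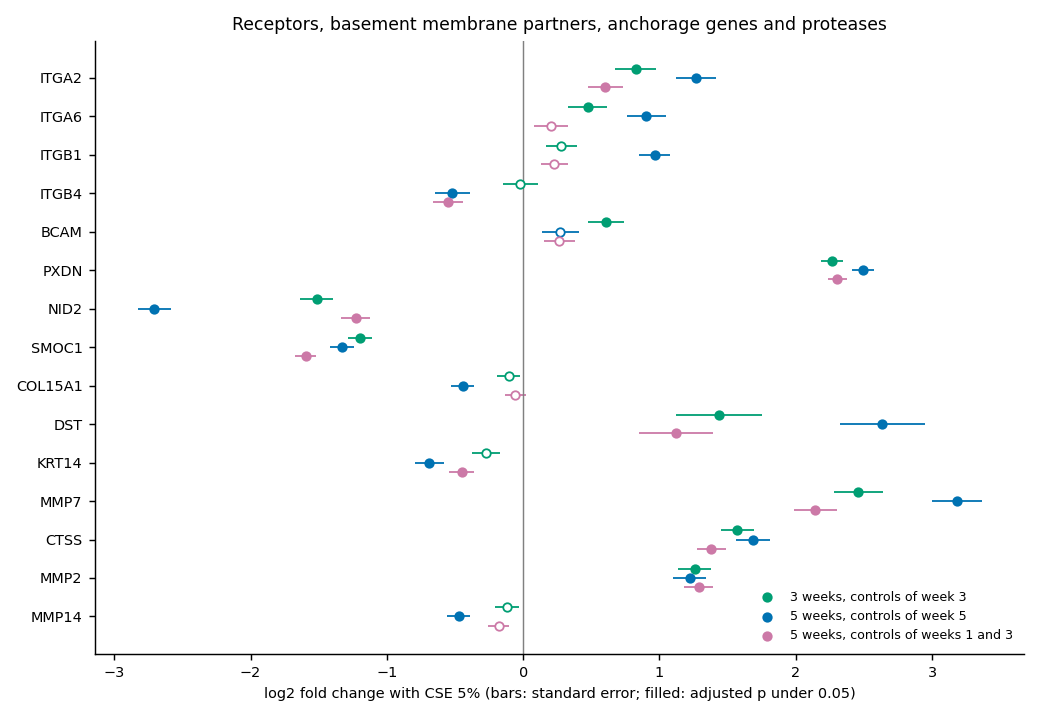
Log2 fold change with CSE 5% (horizontal axis) of the named receptors, basement membrane partners, anchorage genes and proteases at 3 weeks and at 5 weeks against either set of controls; bars give the standard error and filled points an adjusted p under 0.05. NID2, SMOC1 and ITGB4 lie left of 0 against both sets at 5 weeks, and PXDN, MMP7, CTSS, MMP2, DST and ITGA2 lie right of 0.

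Markers of other cell types gave these values beside the 5-week results. With CSE 5% against the 5-week controls, 6 of 8 fibroblast, 4 of 4 endothelial and 5 of 5 leukocyte markers were lower and 0 higher. Among all clusters 40.3% were lower and 23% higher. Against the earlier controls 1, 0 and 2 were lower, where 13% of clusters were lower and 13.1% higher. Of the 5 epithelial markers, 1 was higher and 3 were lower with CSE 5%, and all 5 were lower against the earlier controls. The mean level of the fibroblast list was 5.90 to 6.15 on the 5-week controls, 5.67 to 5.87 on the earlier controls and 5.63 to 5.73 with CSE 5% at 5 weeks. That of the endothelial list was 5.59 to 5.79, 5.31 to 5.48 and 5.26 to 5.42, and that of the leukocyte list 6.38 to 6.59, 6.02 to 6.32 and 5.88 to 5.96, in the same order. The part of these shifts in the values of the chains was not tested.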

How the data were processed

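A549 RNA was measured on 36 arrays (Affymetrix Human Gene 1.0 ST) from 12 groups of 3. The authors background-corrected, normalised and summarised the probe signals per transcript cluster with RMA and deposited log2 values, which lay between 2.29 and 14.5 and were used as they stand. The quantile step of RMA draws array distributions together, although those deposited were not identical, so a shift of most genes would be reduced. R 2.11.0, limma and RMA are listed by the submitters' notes on processing. Their genome build: not given in the sources used here.

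Platform annotation gave 1 symbol to 19460 clusters, several to 1754 and none to 12083. Of several clusters for a gene, the brightest on average was used. Gene symbols and promoter windows came from RefSeq tables of GRCh38.p14. With limma 3.58.1 in R 4.3.3, a mean per group was fitted to all arrays (24 residual and 3.91 prior degrees of freedom). All p-values are limma's, Benjamini-Hochberg adjusted over 33297 clusters, and a cluster passed at an adjusted p under 0.05. Contrasts were each concentration against the control of its week, neighbouring concentrations, the effect at 3 or 5 weeks minus that at 1 week, and controls between weeks. The fit was tested on simulated data.

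All 8 laminin chains were named, with LAMA2, LAMB4 and LAMC3. Of each further list, up to 4 genes with the smallest p for CSE 5% at 5 weeks and 3 at 3 weeks were named, and for each chain the 3 genes with the highest r over the 12 group means. Members and lists were chosen with earlier results of these data known. Alternatives were the study's thresholds (log2 fold change beyond 1 and B above 0), controls of weeks 1 and 3, cyclic loess, quantile normalisation again, housekeeping centring, the 60% brightest clusters, separate fits, the replicate number as a block, a trended robust variance, the mean of a gene's clusters and each array left out. Precision is limited by the number of arrays. Real-time PCR and protein assays of the study were not used.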

Additional observations from a re-analysis of the deposited data

Results flagged for a closer look

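For 4 of the 7 chains the effect of CSE differed between weeks in at least 1 of 6 limma tests of the difference itself. Of all clusters, 4.9%, 3.23% and 9.13% passed at 3 weeks minus 1 week with CSE 1%, 5% and 10%. At 5 weeks minus 1 week, 21%, 30.7% and 29.6% passed. Each share belongs to 1 test. The share of clusters passing at least 1 of the 6 was not computed and cannot be below 30.7%, so the 4 of 7 has no like reference. For LAMB3 the effect at 3 weeks minus that at 1 week was -0.75 with CSE 5% and -0.96 with CSE 10%, and at 5 weeks minus 1 week it was -0.95, -1.25 and -1.32 with CSE 1%, 5% and 10%. For LAMB1 it was 0.53 at 3 weeks minus 1 week with CSE 10%, and 0.59, 0.51 and 0.72 at 5 weeks minus 1 week with CSE 1%, 5% and 10%. For LAMA4 with CSE 1% it was -0.50 at 5 weeks minus 1 week, and for LAMB2 with CSE 5% it was -0.45. Against the controls of weeks 1 and 3, the 5-week differences of LAMB3 kept their size (-0.94, -1.24 and -1.31) and those of LAMB1 (0.06, -0.02 and 0.18), LAMA4 (-0.26) and LAMB2 (-0.32) did not pass. With the 5-week controls, the LAMB2 difference was also lost without any 1 of 6 arrays (adjusted p of 0.055 to 0.087).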

How the results depend on the processing

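Each measured chain had 1 cluster, so taking the mean of a gene's clusters could not change its difference and is no check of it. Of the single differences of the chains in 23 comparisons, 2 calls were lost with a trended and robust variance. The replicate block lost 3, and separate fits on fewer arrays lost 23. By the study's thresholds 0 chains passed in the 9 comparisons with control, the 2 dose comparisons at 3 weeks, the control comparisons, and the differences between effects, apart from 1 chain each with CSE 5% and 10% at 5 weeks minus 1 week. Separate fits gave 0 chains with CSE 1% at 1 week and at 3 weeks, 2 with CSE 10% at 1 week, 1 with CSE 5% at 3 weeks, 3 with CSE 1% at 5 weeks, 0 for both dose comparisons at 3 weeks, 0 with CSE 5% at 3 weeks minus 1 week, 1 with CSE 1% at 5 weeks minus 1 week, and 0 and 1 in controls from 1 to 3 and from 3 to 5 weeks. Housekeeping centring gave 2 chains with CSE 1% at 1 week, 5 with CSE 1% and 3 with CSE 10% at 3 weeks, 2 with CSE 1% and 0 with CSE 5% at 3 weeks minus 1 week. Cyclic loess gave 2 with CSE 10% at 3 weeks, 0 for CSE 10% against 5% at 3 weeks and 4 with CSE 10% at 5 weeks minus 1 week. Quantile normalisation again gave 2 with CSE 10% at 1 week and at 3 weeks, and 0 for CSE 10% against 5% at 3 weeks. The 60% brightest clusters, which leave out LAMA1 and LAMA4, gave 1 with CSE 5% and 1 with CSE 10% at 3 weeks, 0 for CSE 10% against 5% at 3 weeks and 2 in controls from 3 to 5 weeks. The controls of weeks 1 and 3 gave 4 with CSE 5% and with CSE 10% at 5 weeks, and 1 chain at each concentration at 5 weeks minus 1 week. They reversed LAMB1 with CSE 5% (-0.022) and 10% (-0.11) at 5 weeks and with CSE 5% at 5 weeks minus 1 week (-0.025). Cyclic loess reversed LAMA1 (-0.022) and LAMA4 (-0.019) in controls from 3 to 5 weeks. The causes were not tested. Apart from those with the controls of weeks 1 and 3, shares of all clusters passing in these settings were not computed. The trended and robust variance gave 0 for CSE 10% against 5% at 3 weeks.

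With each array left out, the chains that passed were 0 to 1, 3 and 2 to 3 with CSE 1%, 5% and 10% at 1 week, 2 to 4, 1 to 2 and 0 to 2 at 3 weeks, and 4 to 7, 6 to 7 and 7 at 5 weeks. They were 0 to 1 for CSE 5% against 1% at 3 weeks, 0 for CSE 10% against 5% at 3 weeks, 0 to 1 with CSE 5% at 3 weeks minus 1 week, and 0 to 2 in controls from 1 to 3 weeks. The CSE 10% count at 3 weeks reached 2 without control replicate 1, when LAMB1 (0.30) and LAMC1 (0.36) passed.

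Replicate numbers did not pair the arrays throughout. Of 27 same-numbered pairs of exposed and control arrays, deviations from group means correlated at -0.21 to 0.50, 6 over 0.1, and 10 exposed arrays correlated best with their own number. Replicate 1 of CSE 1% correlated with control replicate 1 at 0.50, 0.33 and 0.32 at 1, 3 and 5 weeks. Replicate 1 of CSE 10% at 1 week (-0.06) and of CSE 5% at 5 weeks (-0.18) did not. Pairing of some arrays therefore remains possible. With the replicate block, 0 chains passed for CSE 10% against 5% at 3 weeks (LAMA4, adjusted p = 0.057), and LAMA4 with CSE 10% at 1 week and LAMB2 with CSE 5% at 5 weeks missed the threshold (both adjusted p = 0.054).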
